A study of Homo sapiens with 3 samples.

Results

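The nuclear genes for subunits of the mitochondrial respiratory chain and ATP synthase were described in 3 single-cell RNA libraries of SC-alpha cells, glucagon-producing cells differentiated from the embryonic stem cell line HUES8. Members were the features whose symbol begins with NDUFA, NDUFB, NDUFC, NDUFS or NDUFV, with UQCR, with COX4 to COX8, or with ATP5. Of 97 such features, 8 complex I assembly factors (NDUFAF genes) and 2 antisense genes were left out, which left 87 of the 33538 features. They comprise 38 genes of complex I, 9 of complex III, 17 of complex IV and 21 of complex V, with NDUFA4 and its paralogue NDUFA4L2 kept apart. Among the 87 are 2 read-through genes (NDUFC2-KCTD14 and ATP5MF-PTCD1), the near-copies UQCRHL and ATP5MGL, and ATP5IF1, an inhibitor of ATP synthase rather than a subunit. The symbol rule does not take in CYC1, a subunit of complex III. All 3 libraries belong to 1 group, SC-A, numbered as replicates 1 to 3, with no second condition analysed here, so every comparison was made between barcodes of the same library. Nothing in the labels ties the replicates to separate differentiations, and the p-values measure at most how these libraries vary, which may be technical.

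Replicates 1, 2 and 3 held 2850, 2576 and 4257 barcodes with 30139788, 31122791 and 30980799 UMIs, each UMI being 1 counted RNA molecule. A barcode was kept if it had 1000 genes or more and no more than 20% of its UMIs came from the mitochondrial genome (MT- genes), which gave 1160, 1027 and 1466 barcodes at median depths of 15267, 20721 and 9991.5 UMIs. No barcode was shared between libraries. Within them, TPH1-positive barcodes (at least 3 UMIs of TPH1, the serotonin-synthesis enzyme of enterochromaffin cells) numbered 36, 20 and 107. Collagen-positive barcodes (at least 10 UMIs over COL1A1, COL1A2 and COL3A1) numbered 9, 11 and 98. INS-rich barcodes (INS at least 1% of UMIs) numbered 26, 59 and 7. GCG barcodes (GCG at least 5% of UMIs and none of the preceding rules) numbered 828, 811 and 908 and were the common basis of the first 3 comparisons, which therefore share their GCG sums. Each group was checked against markers that its rule did not use. Mesenchyme genes other than the 3 collagens summed to 2480 ± 365 CPM (UMIs per 1e6 UMIs of the sum) in collagen-positive barcodes and to 9.29 ± 0.469 CPM in GCG barcodes (SD, n = 3), with LUM, DCN and POSTN at 951, 263 and 595 CPM in collagen-positive barcodes. Enterochromaffin genes other than TPH1 summed to 1447 ± 19.7 CPM in TPH1-positive barcodes and to 240 ± 30.7 CPM in GCG barcodes, with FEV at 509 CPM and TAC1 at 0 in TPH1-positive barcodes. Beta-cell genes other than INS were uneven, at 976, 79.9 and 4650 CPM in INS-rich barcodes of replicates 1, 2 and 3 and at 43.7, 34.0 and 24.3 CPM in GCG barcodes. Most of that was IAPP, with PDX1, NKX6-1 and G6PC2 at 34.6, 7.57 and 4.16 CPM and MAFA at 0 in INS-rich barcodes, so the INS-rich barcodes are called by their rule. Alpha-cell genes other than GCG, led by TTR, summed to 69524 CPM in INS-rich barcodes, against 75890.0 CPM in GCG barcodes.

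Complexes I, III and IV pass electrons from nutrients to oxygen and pump protons across the inner mitochondrial membrane, and complex V, the ATP synthase, uses the proton gradient to make ATP. A few core subunits are encoded by mitochondrial DNA and the remaining subunits by nuclear genes, so each complex is built from both genomes. In islet endocrine cells this ATP couples nutrient use to electrical activity and hormone release. NDUFA4, first assigned to complex I, is a subunit of complex IV. Its paralogue C15orf48 (also called NMES1 or MOCCI) can take its place in complex IV, and the C15orf48 transcript hosts miR-147b, a microRNA known to target NDUFA4 mRNA. C15orf48 is not a member and was taken up after its values were seen.

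NDUFA4 (ENSG00000189043) lies on the minus strand of chr7:10931951-10940256, and C15orf48 (ENSG00000166920) on the plus strand of chr15:45430529-45448761 (GRCh38). The mature microRNA (RefSeq, GRCh38.p14, chr15:45433098-45433118, plus strand) is shown with its seed, bases 2 to 8, in capitals. Below it stand 29 bases of the NDUFA4 3′ UTR (GENCODE transcript ENST00000339600, GRCh38, chr7:10933563-10933591, minus strand), written as DNA 5′ to 3′, with the match to that seed in capitals. They are shown because the pair NDUFA4 and C15orf48 is where the members' levels differed most between barcode groups.
hsa-miR-147b-3p: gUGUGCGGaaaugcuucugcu
NDUFA4 3′ UTR: agaagccacatCCGCACAattttccactt
The match CCGCACA starts at base 56 of a 3′ UTR of 1685 bases. It occurred in the 3′ UTR of 1 of the 87 members (1.15%), NDUFA4, and of 514 of 19108 protein-coding genes (2.69%). MicroRNAs were not measured in these libraries.

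In GCG barcodes the members were widely and evenly detected. Mean levels over the 3 libraries reached at least 10 CPM for 76 of the 87 members and at least 100 CPM for 60, with a median of 146 CPM. UMIs are counted once per molecule from the 3′ end, so the levels were not divided by transcript length. The coefficient of variation between libraries had a median of 7.0% and a highest value of 15.1% among members at 10 CPM or more. ATP5F1E, the epsilon subunit of ATP synthase, was the highest member at 1844, 1830.1 and 2079.6 CPM in replicates 1, 2 and 3. In complex V it was followed by ATP5MG, a membrane-sector subunit, at 548 ± 34.6 CPM and ATP5MC2, which encodes the c-ring protein, at 381 ± 17.2 CPM (SD, n = 3). In complex IV the leading members were COX7C at 725 ± 35.8 CPM, COX8A at 583 ± 58.1 CPM and COX6C at 461 ± 30.9 CPM, all small subunits around the catalytic core. In complex III they were UQCRB at 463 ± 39.6 CPM, UQCR11 at 306 ± 35.8 CPM and UQCRH at 305 ± 38.3 CPM, and the last pair did not differ beyond their spread. Complex I members were lower, led by the accessory subunits NDUFB2 at 397 ± 33.2 CPM, NDUFB11 at 324 ± 28.1 CPM and NDUFS5 at 307 ± 30.8 CPM, with a complex median of 119 CPM, against 287 CPM for complex III, 214 CPM for complex IV and 235 CPM for complex V.

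**Figure D1:**
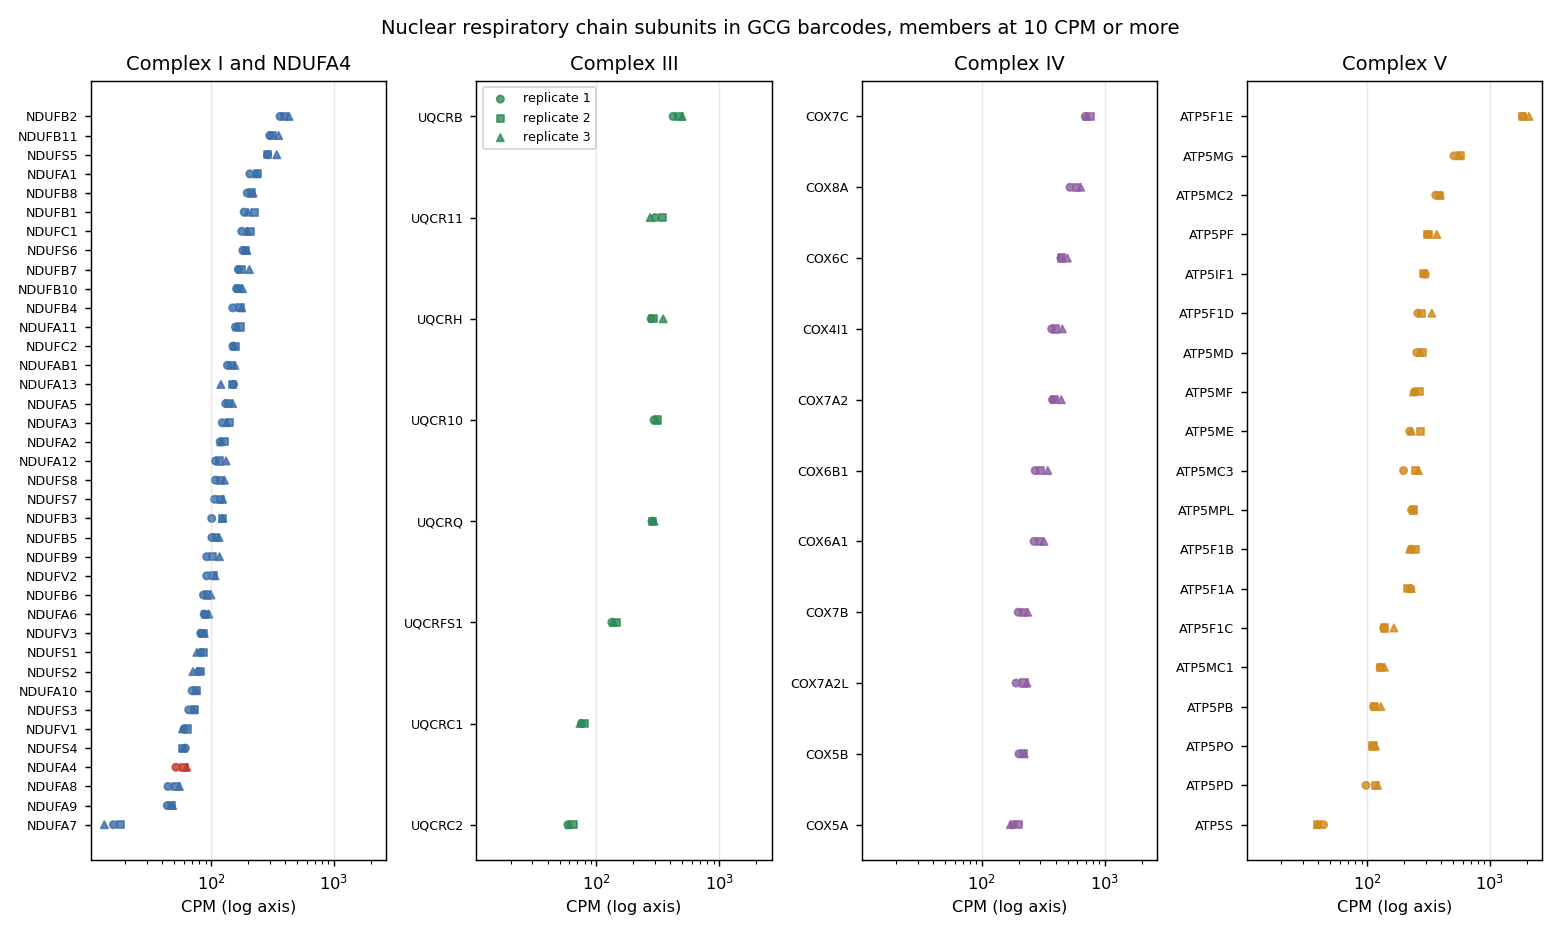
Level of each member with a mean of at least 10 CPM in GCG barcodes, in CPM on a log axis, with 1 point per library and 1 panel per complex (NDUFA4, in red, is placed with complex I). ATP5F1E lies highest at a mean of 1918 CPM, the 3 libraries lie close together for most members, and NDUFA4 is among the lowest at 58.4 CPM.

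Where a subunit has tissue-specific paralogues, the broadly expressed form carried the signal. COX4I1 stood at 406 ± 41.8 CPM in GCG barcodes, and COX4I2, the form known from lung, had no UMI in any of the 4 groups; 3 UMIs over all GCG barcodes would be 0.0704 CPM. The heart and muscle form COX6A2 was at 0.982 CPM and COX6A1 at 293 CPM. The testis forms COX6B2, COX7B2 and COX8C were at 0.189, 0 and 0.101 CPM, beside COX6B1 at 305 CPM, COX7B at 217 CPM and COX8A at 583 CPM. COX7A1, the heart and muscle form of subunit 7A, was uneven between libraries, with 27, 134 and 0 UMIs in GCG barcodes of replicates 1, 2 and 3, found in 17, 60 and 0 barcodes, while COX7A2 was at 376, 389 and 443 CPM. The 3 genes for the identical c-ring protein of ATP synthase were all present, ATP5MC1 at 131 CPM, ATP5MC2 at 381 CPM and ATP5MC3 at 235 CPM. Members at less than 1 CPM numbered 7, namely COX4I2, COX6A2, COX6B2, COX7B2, COX8C and both read-through genes. UQCRHL was at 2.31 CPM, and reads of UQCRH and UQCRHL, of ATP5MG and ATP5MGL, and of NDUFC2 and its read-through gene may be split between them.

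NDUFA4 was the member whose level differed most between barcode groups. It was at 98.2, 156 and 131 CPM in TPH1-positive barcodes of replicates 1, 2 and 3, and in replicate 2 a single barcode held 21 of the 52 UMIs, without which the level was 103 CPM. In collagen-positive barcodes it was at 854, 859.9 and 1060.2 CPM. INS-rich barcodes had 69.0, 57.3 and 58.5 CPM, and GCG barcodes 51.7, 60.2 and 63.2 CPM. Among the 4 groups the collagen-positive values lay above all others in every library. The TPH1-positive values lay above the GCG values in every library, and the INS-rich values overlapped with those of GCG barcodes. Barcodes under 1% GCG that met none of the rules were also high, at 450, 272 and 843 CPM, so high NDUFA4 was not particular to collagen-positive barcodes. In ranks, NDUFA4 was number 1997 of all features by level in GCG barcodes, and its 58.4 ± 5.97 CPM there lay below the complex IV median of 214 CPM. Against GCG barcodes, C15orf48 ran in the other direction in collagen-positive and TPH1-positive barcodes only. It was at 55.3, 102 and 77.5 CPM in TPH1-positive barcodes, at 0, 0 and 0.898 CPM in collagen-positive barcodes, at 184, 173 and 136 CPM in INS-rich barcodes and at 108, 115 and 128 CPM in GCG barcodes. The collagen-positive barcodes held 1 UMI of C15orf48 among 1461639 UMIs in all, where 3 UMIs would be 2.05 CPM.

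**Figure D2:**
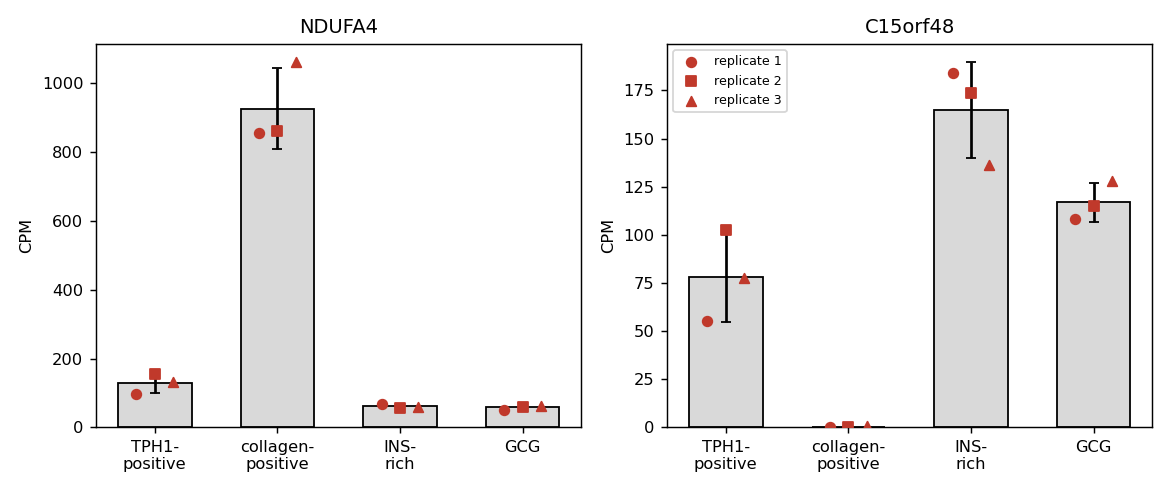
NDUFA4 (left) and C15orf48 (right) in CPM in the 4 barcode groups. Barcodes of low GCG share that met none of the rules are not shown. Bars are means over 3 libraries, error bars are SD and points are libraries; the 2 panels have different scales. NDUFA4 averaged 925 CPM in collagen-positive barcodes and 58.4 CPM in GCG barcodes, while C15orf48 averaged 0.299 CPM in collagen-positive barcodes and 117 CPM in GCG barcodes.

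The difference was also present barcode by barcode. After each barcode was thinned to 5000 UMIs, 95.9% ± 6.12 of collagen-positive and 25.6% ± 1.83 of GCG barcodes held an NDUFA4 UMI (SD, n = 3); unthinned, the shares were 99.7% of collagen-positive and 56.9% of GCG barcodes. The means of 39.7% ± 7.74 of TPH1-positive and 30.6% ± 15.7 of INS-rich barcodes lay between them when thinned, but in replicate 2 the share was 13.0% of INS-rich barcodes, against 27.7% of GCG barcodes. C15orf48 had a UMI in 0.340% of collagen-positive barcodes, unthinned, against 74.3% of GCG barcodes, at similar median depths of 16431, 19655 and 10345.5 UMIs in collagen-positive and 16438, 21781 and 10481.5 UMIs in GCG barcodes. The first share is that of a group in which the gene was near 0, and TPH1-positive and INS-rich barcodes stood at 47.4% and 90.7%. In collagen-positive barcodes 9 of 9, 11 of 11 and 96 of 98 held NDUFA4 without C15orf48, while in GCG barcodes 95 of 828, 91 of 811 and 138 of 908 did, and 375, 458 and 282 held both. The other named relative, NDUFA4L2, known as a hypoxia-induced gene, was near the counting limit, with 2, 0 and 2 UMIs in TPH1-positive, 0, 0 and 10 in collagen-positive, 0, 2 and 1 in INS-rich and 27, 19 and 27 in GCG barcodes.

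Collagen-positive barcodes were compared with GCG barcodes in replicates 2 and 3, since replicate 1 had 9 collagen-positive barcodes and a sum needed at least 10. UMIs were summed per library and group, and edgeR's quasi-likelihood test was fitted over all genes with the library as a block and Benjamini-Hochberg adjustment (calls at 0.05). With 2 libraries, as also in the INS comparison, edgeR's p-values rest largely on a spread pooled over all genes. They measure little of how far the libraries differ for a single gene. Of 79 members tested, 17 were higher in collagen-positive barcodes (21.5% of the members, where 18.6% of all 13289 genes were called higher) and 3 were lower (3.8%, where 20.2% of all genes were called lower). The share called higher was thus near that of all genes, while the share called lower was smaller. Standard errors were smaller for members (median 0.22, against 0.50 over all genes), so these shares were not compared at equal precision. The members' median log2 fold change was 0.23, against -0.19 over all genes, and 51 of 79 were positive. On plain CPM, without edgeR's scaling (TMM), these medians were 0.47 and -0.0058. DESeq2 called 5 members higher and 2 lower, and edgeR with all 3 libraries 15 and 8 (11 and 7 without replicate 2). Counts of all genes called in those alternative fits are not given here.

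NDUFA4 rose the most, by 3.70 ± 0.20 (log2, SE; 13.0-fold) with an adjusted p of 8.4e-74 from edgeR, and was higher in both libraries. It ranked 711 by fold among the 2466 genes called higher. Over 11 other ways of fitting, its log2 fold change ran between 3.50 and 3.72 with a largest adjusted p of 2.7e-06, and it was 3.62 without barcodes holding proliferation UMIs. C15orf48 was called lower by edgeR (adjusted p = 3.5e-34); no fold is given against 0 and 1 UMIs. ATP5PO, the peripheral-stalk subunit OSCP of ATP synthase, was at 341, 333 and 365 CPM in collagen-positive barcodes, against 111, 112 and 117 CPM in GCG barcodes, with no overlap. Its log2 fold change was 1.36 ± 0.21 (edgeR adjusted p = 2.7e-09).

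The next increases were in accessory subunits of complex I. NDUFA6 was at 197, 328 and 161 CPM in collagen-positive barcodes and at 87.8, 90.3 and 95.8 CPM in GCG barcodes, a log2 fold change of 1.00 ± 0.23 that rested partly on replicate 2: with all 3 libraries but that one it was 0.54 (edgeR adjusted p = 0.053). NDUFC2 was at 263, 369 and 321 CPM in collagen-positive barcodes and at 150.4, 159 and 154 CPM in GCG barcodes, a log2 fold change of 0.88 ± 0.21, and 0.58 (edgeR adjusted p = 0.054) with all libraries but replicate 3. By complex, 8 of 37 complex I members, 1 of 9 of complex III, 3 of 11 of complex IV and 4 of 20 of complex V were called higher. The remaining calls had log2 fold changes between 0.43 (COX4I1) and 0.83 (NDUFS4), and UQCRH in complex III changed by 0.69 ± 0.18. COX4I1 lost its call in 9 and COX6A1 in 10 of the 11 alternatives.

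Against this, 3 members fell, among them the most abundant one. COX8A was at 341, 374 and 400 CPM in collagen-positive barcodes, against 522, 588 and 638 CPM in GCG barcodes, a log2 fold change of -0.92 ± 0.18. ATP5F1E was at 1353, 1295 and 1241 CPM in collagen-positive barcodes, against 1844, 1830.1 and 2079.6 CPM in GCG barcodes, a log2 fold change of -0.89 ± 0.14. Neither gene's libraries overlapped between groups, and both stayed negative on plain CPM at -0.66 and -0.62. COX7A2L, a factor in joining complexes III and IV into supercomplexes, was also lower, at 184, 148 and 183 CPM in collagen-positive and 190, 221 and 233 CPM in GCG barcodes. Its log2 fold change was -0.68 ± 0.22 (edgeR adjusted p = 0.0079), and the adjusted p was 0.19 when barcodes were thinned. Collagen-positive barcodes also differed in other ways whose part in these results was not tested. Their 4 proliferation genes summed to 912 ± 419 CPM, against 8.79 ± 12.3 CPM in GCG barcodes, their 4 neural or glial genes to 247 ± 134 CPM, against 5.95 ± 4.59 CPM in GCG barcodes, and MT- genes took 10.1% ± 0.99 of their UMIs, against 15.1% ± 0.126 in GCG barcodes. GCG itself was at 903 CPM in collagen-positive barcodes.

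TPH1-positive barcodes were compared with GCG barcodes in all 3 libraries. With edgeR's scaling, 22 of 79 members tested were lower (27.8%, where 7.99% of all 12942 genes were called lower) and 1, NDUFA4, was higher (1.27%, where 6.97% of all genes were). Members had smaller standard errors (median 0.12, against 0.27 over all genes), so equal shifts are called more easily among them. The shares were thus not compared at equal precision. Calls of lower were spread over the complexes, with 8 of 37 members of complex I, 4 of 9 of complex III, 5 of 11 of complex IV and 5 of 20 of complex V. The members' median log2 fold change was -0.23, against -0.020 for all genes, and 67 of 79 were negative. The sign depends on the scaling: on plain CPM the median over all genes was 0.45 and that of the members 0.24, with 71 of 79 members positive. Members were thus below the median gene, but above 0 on plain CPM. The scaling shifts all genes of a sum alike, so plain CPM is no second test of the gap to the median gene.

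NDUFA4 rose by 0.64 ± 0.14 (log2, SE; edgeR adjusted p = 0.0023) in TPH1-positive barcodes, higher in 3 of 3 libraries, and by 1.14 on plain CPM; without the barcode of replicate 2 that held 21 of its UMIs it rose by 0.48 (edgeR adjusted p = 0.012). C15orf48 fell by 1.10 ± 0.15 (edgeR adjusted p = 3.4e-05), lower in 3 of 3 libraries. Among the members called lower, ATP5F1E was at 1635, 1595 and 1679 CPM in TPH1-positive barcodes, against 1844, 1830.1 and 2079.6 CPM in GCG barcodes, and its log2 fold change was -0.70 ± 0.085 (edgeR adjusted p = 6.6e-06). ATP5MG was at 436, 551 and 516 CPM in TPH1-positive and 509, 574 and 561 CPM in GCG barcodes, a log2 fold change of -0.61 ± 0.098. COX7C was at 639, 689 and 669.7 CPM in TPH1-positive and 696, 765 and 714 CPM in GCG barcodes, a log2 fold change of -0.59 ± 0.095. These 3 were lower in every library on plain CPM too. NDUFA13, a complex I subunit also known as GRIM-19, was called lower at -0.59 ± 0.13, but its plain levels of 125, 175 and 100.7 CPM in TPH1-positive and 152, 149.6 and 120.1 CPM in GCG barcodes overlapped, and it lost its call without replicate 1 (-0.51, edgeR adjusted p = 0.0996). The number called lower itself moved with the fit: 5 by DESeq2, 5 without replicate 1, 14 without replicate 3, and 8 without the library block. Counts of all genes called in those fits are not set beside them. Median depth was lower in TPH1-positive barcodes, at 11763.5, 14185 and 8075 UMIs, and when both groups were thinned to 5000 UMIs 12 members were called lower; the part of depth in the rest was not tested. Other levels moved with this comparison, and their part was not tested either. GCG was at 17921 CPM in TPH1-positive and 148158 CPM in GCG barcodes. The 4 neural or glial genes summed to 122 ± 45.6 CPM in TPH1-positive barcodes, most of it SOX2 at 110 CPM, and to 5.95 ± 4.59 CPM in GCG barcodes, where SOX2 was at 1.46 CPM. The proliferation genes summed to 0, 150.4 and 2.21 CPM in TPH1-positive barcodes of replicates 1, 2 and 3, against 1.69, 23.0 and 1.70 CPM in GCG barcodes.

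INS-rich barcodes were compared with GCG barcodes in replicates 1 and 2, since replicate 3 had 7 INS-rich barcodes. No member of 80 tested was called in either direction by edgeR, where 0.862% of all 13341 genes were called higher and 0.465% lower. At an unadjusted p of 0.05 from edgeR, 7 of 80 members differed, all higher in INS-rich barcodes, where 1148 of all 13341 genes differed in either direction. The members' share was thus near that of all genes, although their standard errors were smaller (median 0.10, against 0.32 over all genes). DESeq2 called 0 members, and its share called over all genes is not given here. The members' median log2 fold change was 0.065, and for 76 of 80 the 95% interval of the log2 fold change lay within 1 of 0 in both directions, for 70 within 0.5. NDUFA4 changed by 0.098 (interval -0.21 to 0.41), which did not pass the test (edgeR adjusted p = 0.97), and C15orf48 rose by 0.66 ± 0.11 (edgeR adjusted p = 2.8e-07), higher in 2 of 2 libraries. Delta-cell genes summed to 5637, 9367 and 46906 CPM in INS-rich barcodes of replicates 1, 2 and 3, against 1432, 2197 and 1285 CPM in GCG barcodes; their part was not tested.

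**Figure D3:**
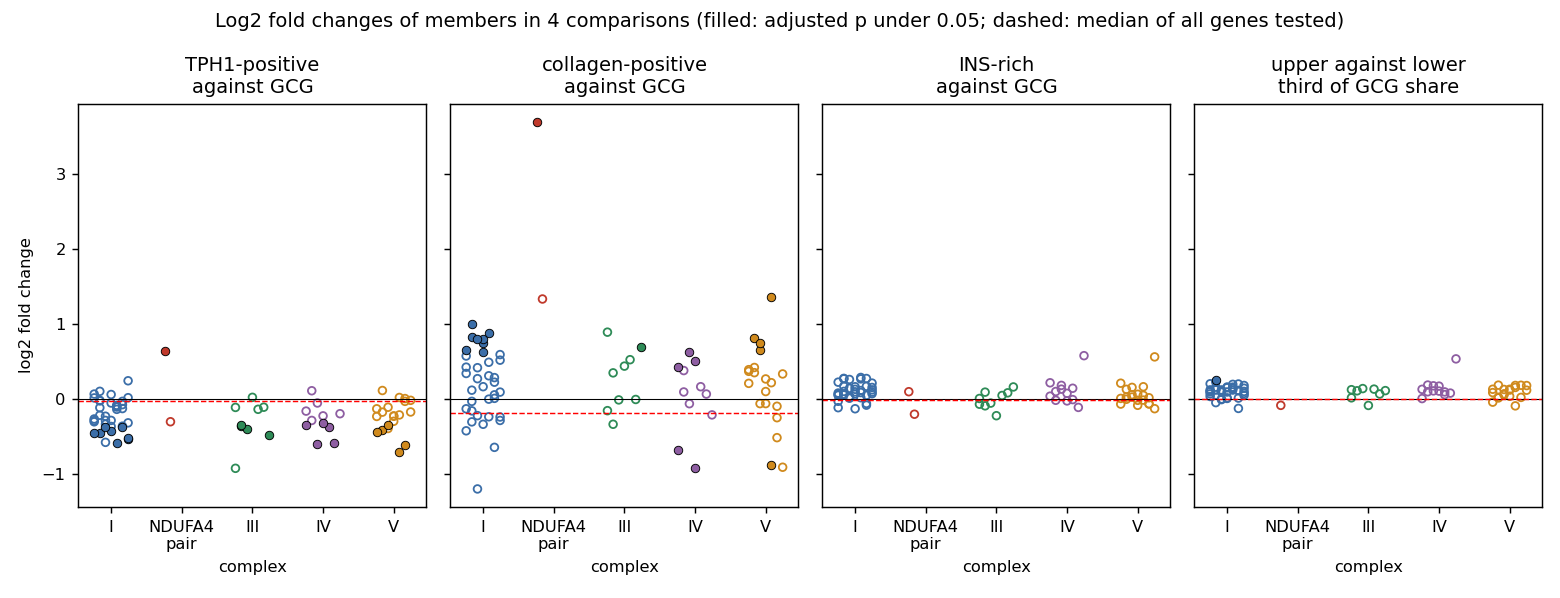
Log2 fold change of each member tested, by complex, in the 4 comparisons, scaled by edgeR; filled points passed an adjusted p of 0.05 and the dashed line is the median of all genes tested. NDUFA4 (red, filled) stands at 3.70 in collagen-positive and 0.64 in TPH1-positive barcodes. The TPH1-positive and upper-tercile medians of -0.23 and 0.11 change sign on plain CPM, to 0.24 and -0.19. For the terciles, the ranking by GCG share itself lowers plain CPM of other genes.

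The summed level of the members showed the same dependence on what else the barcode holds. The 87 members took 1.95% ± 0.081 of all UMIs in TPH1-positive barcodes, 2.32% ± 0.086 in collagen-positive, 1.77% ± 0.104 in INS-rich and 1.73% ± 0.095 in GCG barcodes (SD, n = 3). TPH1-positive and collagen-positive sums thus lay above the GCG sum in each library. When MT- genes, GCG, TTR and INS were left out of the total, the members took 2.41% ± 0.069 in TPH1-positive, 2.59% ± 0.082 in collagen-positive, 2.74% ± 0.0998 in INS-rich and 2.76% ± 0.120 in GCG barcodes, and both TPH1-positive and collagen-positive sums lay below the GCG sum in each library. That total is one-sided: GCG and TTR were at 148158 and 74321 CPM in GCG barcodes, but at 903 and 651 CPM in collagen-positive and 17921 and 18933 CPM in TPH1-positive barcodes. No genes typical of the latter groups were left out. In the edgeR fit of collagen-positive barcodes the members' median was 0.23, against -0.19 over all genes. By complex on all UMIs, complex I took 0.732% ± 0.029 in collagen-positive and 0.516% ± 0.029 in GCG barcodes, and complex V 0.743% ± 0.019 in collagen-positive and 0.611% ± 0.031 in GCG barcodes. On the reduced total, complex I was at 0.815% ± 0.028 in collagen-positive and 0.825% ± 0.039 in GCG barcodes, within the spread. Complex V was at 0.828% ± 0.021 in collagen-positive and 0.976% ± 0.034 in GCG barcodes, and complex IV at 0.546% ± 0.027 in collagen-positive and 0.640% ± 0.036 in GCG barcodes. The complex IV sum leaves out NDUFA4, itself a complex IV subunit. NDUFA4 and NDUFA4L2 together took 0.103% ± 0.013 in collagen-positive and 0.0096% ± 0.00087 in GCG barcodes. That gap is of similar size in the other direction, so the lower complex IV sum holds only without NDUFA4.

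**Figure D4:**
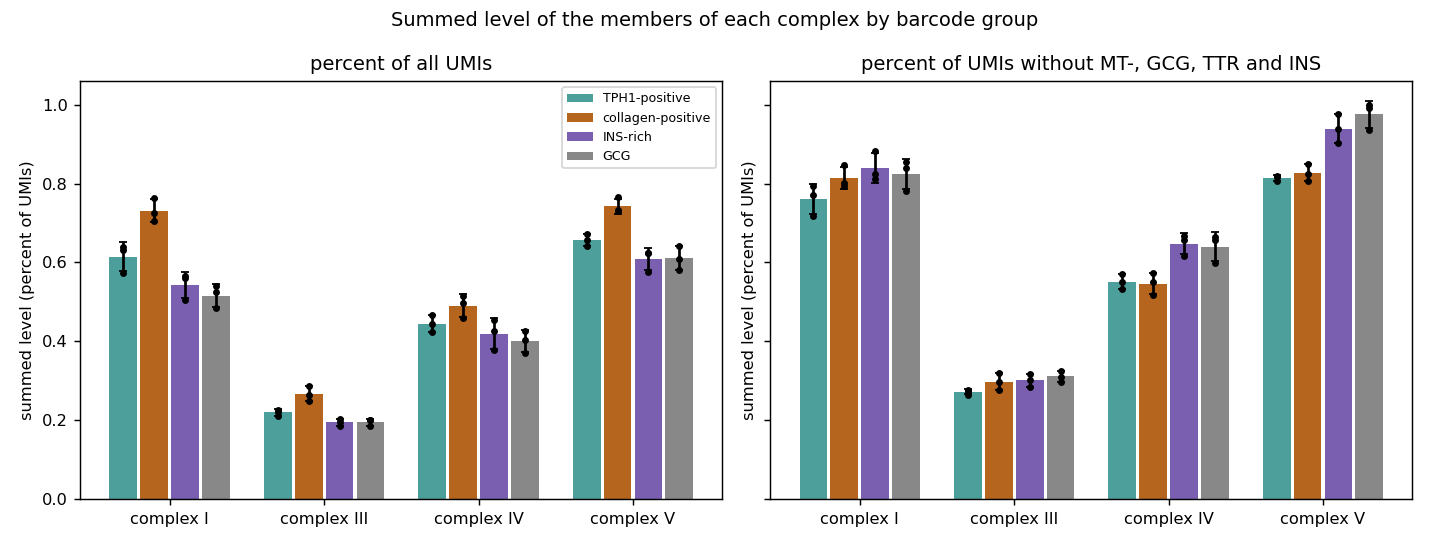
Summed level of the members of complexes I, III, IV and V as a percent of all UMIs (left) and of UMIs without MT- genes, GCG, TTR and INS (right), by barcode group; NDUFA4 and NDUFA4L2 are left out. Bars are means over 3 libraries, error bars SD and points libraries. Collagen-positive barcodes are highest in every complex on the left (complex V 0.743%, against 0.611% in GCG barcodes). On the right, collagen-positive barcodes are below GCG barcodes in complex V (0.828%, against 0.976%) and in complex IV as summed here without NDUFA4. The total on the right leaves out GCG and TTR, which are abundant in GCG barcodes and scarce in collagen-positive ones.

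Among barcodes that met none of the TPH1, collagen and INS rules, the members' mean share of all UMIs was smaller at each step of GCG share. GCG is part of that total, so some decline is built in. It was 2.30% ± 0.228 where GCG was under 1% of UMIs, 2.04% ± 0.317 at 1 to 5%, 1.87% ± 0.128 at 5 to 10%, 1.73% ± 0.089 at 10 to 20% and 1.58% ± 0.087 at 20% or more. Replicate 2 differed at the first step, with 2.10% under 1% and 2.40% at 1 to 5%. Without MT- genes, GCG, TTR and INS in the total these means were 2.73%, 2.69%, 2.71%, 2.75% and 2.93%, with no such decline. NDUFA4 also fell, mostly at the first step. It was at 450, 272 and 843 CPM under 1% GCG, with means of 84.4, 66.6 and 57.8 CPM in the next bins. At 20% or more it was at 47.9, 47.1 and 48.1 CPM. C15orf48 was at 64.5, 100.3 and 50.8 CPM under 1% GCG. There 58 of 126, 17 of 49 and 103 of 168 barcodes held NDUFA4 without C15orf48. Cell type markers of that bin are not given here. Without MT- genes, GCG, TTR and INS in the total, NDUFA4 and NDUFA4L2 together took 0.062% under 1% GCG and 0.0116% at 1 to 5%. Among GCG barcodes that share hardly moved, at 0.0098%, 0.0096% and 0.0092% by rising GCG bin. Within GCG barcodes the share also differed with mitochondrial content: it was 3.60% ± 0.071 where MT- genes made under 5% of UMIs, 1.95% ± 0.130 at 5 to 10%, 1.77% ± 0.101 at 10 to 15% and 1.66% ± 0.096 at 15 to 20%. The barcodes under 5% numbered 21, 62 and 4 and were shallow, at a median of 3496, 3874 and 3261 UMIs per barcode (1199, 1238 and 1204.5 genes), and their median MT- shares were 0.686%, 1.37% and 1.18%. They stood apart from the other bins on the reduced total as well (4.48% ± 0.0997, against 2.89% ± 0.149 at 5 to 10%); the part of depth was not tested.

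**Figure D5:**
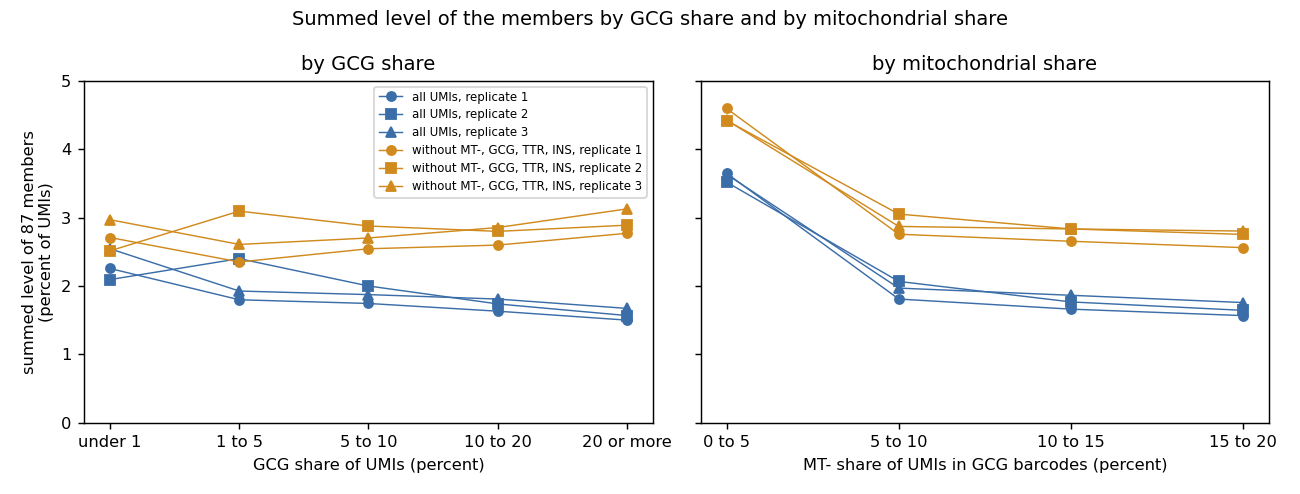
Summed level of the 87 members as a percent of UMIs, by GCG share of the barcode (left) and, in GCG barcodes, by MT- share (right); each line is 1 library, blue with all UMIs as the total and orange without MT- genes, GCG, TTR and INS. On all UMIs the mean moves between 2.30% at the lowest and 1.58% at the highest GCG share, and the lowest MT- bin (21, 62 and 4 barcodes) stands apart at 3.60%.

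To ask whether the members change with the glucagon load of an alpha-type barcode, GCG barcodes were ranked by GCG share within each library and the upper tercile was compared with the lower tercile. Of 77 members tested, edgeR called 1 higher in the upper tercile (1.30%, where 1.26% of all 12168 genes were called) and 0 lower (1.04% of all genes were). The member was NDUFA6, at 82.8, 89.1 and 97.8 CPM in the upper tercile and 88.1, 91.7 and 100.3 CPM in the lower tercile, with a log2 fold change of 0.25 ± 0.069 (edgeR adjusted p = 0.040) after scaling but -0.055 on plain CPM. It lost its call without any 1 of the libraries, with adjusted p between 0.13 and 0.20. At an unadjusted p of 0.05 from edgeR, 29 of 77 members differed, all higher, where 1654 of all 12168 genes differed in either direction. Here too standard errors were smaller for members (median 0.062, against 0.13 over all genes). DESeq2 called 2 members higher and 0 lower. It gave no adjusted p to part of the members, and its share called over all genes is not given here. The median over members was 0.11, against 0.0022 over all genes, and 70 of 77 were positive. On plain CPM the medians were -0.19 and -0.30 and 76 were negative. GCG, on which the terciles were cut, stays in the plain-CPM total (209941 CPM in the upper and 81556 CPM in the lower tercile). The ranking itself thus lowers plain CPM of other genes, so these negative signs are no result about the members. NDUFA4 changed by -0.084 ± 0.081 (edgeR adjusted p = 0.72), while C15orf48 rose by 0.43 ± 0.066 in the upper tercile (edgeR adjusted p = 2.4e-05), higher in 3 of 3 libraries and by 0.12 on plain CPM.

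The other genes of the pathway were counted in the same fits. In the collagen comparison 18.6% of all genes were called higher and 20.2% lower. In collagen-positive barcodes all 13 mitochondrially encoded subunit genes tested were lower, with a median log2 fold change of -0.997 (-0.73 on plain CPM), between -2.01 for MT-ND2 and -0.48 for MT-CYB and MT-ND6. CYC1 and CYCS were both higher. CYC1, the cytochrome c1 subunit of complex III, was at 125, 154 and 128 CPM in collagen-positive barcodes, against 55.3, 61.3 and 55.6 CPM in GCG barcodes. CYCS, the electron carrier cytochrome c, changed by 0.77 ± 0.23 (edgeR adjusted p = 0.0031). None of the 4 complex II genes passed (median 0.47; 0 by edgeR). Of 22 assembly factors tested, NDUFAF4 and UQCC3 were higher and COX17 and COX14 lower. Both shares were below those of all genes, so these counts are no result about the list. COX17, the copper chaperone for complex IV, was at 46.0, 61.4 and 74.5 CPM in collagen-positive barcodes, against 230.4, 261 and 256 CPM in GCG barcodes, a log2 fold change of -2.11 ± 0.25. Of 6 regulators, ESRRA, a nuclear receptor acting on mitochondrial genes, was lower at -1.90 ± 0.58 (edgeR adjusted p = 0.0045), from levels under 20 CPM in each library of both groups.

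In the TPH1 comparison 7.99% of all genes were called lower and 6.97% higher. In TPH1-positive barcodes 11 of 13 mitochondrially encoded genes were called lower after scaling, with a median of -0.42, but on plain CPM the median was 0.056 and 9 of 13 were positive. Of 22 assembly factors 5 were lower (UQCC2, NDUFAF8, COX11, COX14 and COX17, between -0.86 and -0.50). On plain CPM these log2 fold changes lay between -0.38 (UQCC2) and -0.018 (COX17), and only UQCC2 was below GCG barcodes in every library. Of 6 regulators YY1 was higher, at 219, 229 and 190.4 CPM in TPH1-positive barcodes, against 110, 108 and 117 CPM in GCG barcodes. None of the complex II genes passed, nor did CYC1 or CYCS. In INS-rich barcodes none of the other pathway genes tested was called by edgeR, where 0.862% of all genes were called higher and 0.465% lower. In the upper tercile of GCG share 9 of 13 mitochondrially encoded genes were higher after scaling (median 0.20), where 1.26% of all genes were called higher. On plain CPM the median was -0.11 and all 13 were negative, but the ranking by GCG share itself lowers plain CPM of other genes. No gene of the other lists was called. Because barcodes were chosen by their MT- share, the levels of MT- genes were bounded by that choice.

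Promoters of 69 members were found in the RefSeq table of GRCh38.p14, each from 250 bases before to 50 bases after the start site, beside 27305 genes in all. Exact strings were searched on both strands. The NRF1 palindrome occurred in 3 of the 69 members (4.35%) and in 1.52% of all genes, and a looser form with 1 inner base left free, which includes it, in 15 (21.7%) and 6.98%. The ETS string CCGGAAG occurred in 19 members (27.5%) and 12.2% of all genes, the YY1 string AAGATGGC in 11 (15.9%) and 3.52%, and the E-box CACGTG in 7 (10.1%) and 8.77%. Shown are stretches of ATP5PO and COX8A, which after NDUFA4 had the largest increase and the largest decrease among members called in collagen-positive barcodes, on the gene's strand, with the motif in capitals as it reads from the opposite strand.
ATP5PO: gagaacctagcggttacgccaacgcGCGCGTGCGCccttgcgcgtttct
COX8A: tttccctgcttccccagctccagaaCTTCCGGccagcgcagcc
The ATP5PO stretch lies at chr21:33915805-33915853 on the minus strand, its NRF1 string starting at -24 from the start site. The COX8A stretch lies at chr11:63974577-63974619 on the plus strand, its ETS string starting at -18. These are matches of letters and no measure of binding.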

How the data were processed

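The deposited values are unnormalized UMI counts of each gene in each barcode, from libraries of the 10x 3′ v3 kit; per the submitters' processing notes they used Cell Ranger 4.0.0 and GRCh38, and the annotation release is not given in the sources used here. Barcodes with at least 1000 genes and at most 20% MT- UMIs were kept. Scrublet (scanpy 1.11.5, 0.8% per 1000 barcodes) marked 47 of 3653 as doublets (1.29%); they were kept, and left out in an alternative. CPM are per 1e6 UMIs of all genes. Counts were summed per library and barcode group, sums of under 10 barcodes were left out, and edgeR 4.0.16 in R 4.3.3 (TMM, filterByExpr, glmQLFTest, two-sided, prior count 2) was fitted over all genes with library as block, adjusted over all genes tested; DESeq2 1.42.0 was an alternative. The paired sums share a library, so the replicate number pairs them. SE was obtained as log2 fold change over the root of the F statistic. The filter left 79, 79, 80 and 77 of 87 members in the TPH1, collagen, INS and GCG-tercile comparisons. The scripts were tested on simulated counts. Python 3.11.15 was used, with GENCODE v29 for positions and the 3′ UTR.

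Named members are the 3 highest of each complex in GCG barcodes, up to 4 per direction and comparison with the largest fold among calls with 1 sign in all libraries, and fixed paralogue pairs; C15orf48, COX7A1's library counts and calls named from lists of 5 or fewer are exceptions to that rule, picked with their values in view. The members and lists were chosen with earlier results of these data known. p-values do not account for barcode groups formed from the same cells.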

Additional observations from a re-analysis of the deposited data

How the results depend on the processing

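NDUFA4 kept its direction and its call in every alternative run for the TPH1 and collagen comparisons, as did ATP5PO, ATP5F1E and COX8A in the collagen comparison and ATP5F1E, ATP5MG and COX7C in the TPH1 comparison. Over 24 results for single genes and 274 alternatives, 216 kept direction and call, 58 lost the call and 0 reversed. Each of these fits kept edgeR's or DESeq2's scaling. Plain CPM, on which most members' signs turned in the TPH1 and tercile comparisons, was not among them. In the tercile comparison the ranking by GCG share itself lowers plain CPM of other genes. No member was called in the INS comparison under any alternative run. The 22 members called lower in TPH1-positive barcodes became 5 with DESeq2, 12 after thinning to 5000 UMIs, 8 with no replicate block and 10 at 10 or more TPH1 UMIs; leaving out 1 library gave 5 to 18. The 17 called higher in collagen-positive barcodes became 5 with DESeq2. The 3 called lower there became 6 without MT- genes, GCG, TTR and INS, 5 with no replicate block and 8 with all 3 libraries; a mitochondrial limit of 30% also gave 8, but brought in replicate 1 as well, so that limit and library set changed together. Leaving replicate 2 or 3 out of all 3 libraries gave 11 to 12 higher and 5 to 7 lower. The 1 member higher in the upper tercile of GCG share became 2 with DESeq2, which gave an adjusted p to 42 members, 3 without the count filter, 8 at a mitochondrial limit of 30%, 0 with no replicate block, 0 for GCG of at least 20% against 5 to 10%, and 0 to 8 when 1 library was left out. The cause was not tested in any of these. Counts of all genes called under the alternatives are not set beside them. Whether the members' share moved relative to all genes cannot be read from these counts. The fits with all 3 libraries, those without proliferating barcodes and the 1 without the TPH1-positive barcode richest in NDUFA4 were chosen after the data were seen. Collagen-positive at 30 or more UMIs was not run, since 1 library was left, and leaving out a library of the 2-library fits gave no residual degrees of freedom. With 7 to 107 barcodes per sum outside GCG barcodes, members at a few CPM could not be compared.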
